A study of Mus musculus with 6 samples.

Results

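The Id family comprises the mouse genes Id1, Id2, Id3 and Id4, chosen by name. All 4 were among the 11773 protein-coding genes listed, and they had 7 of the 22330 transcripts listed. Values came from 6 libraries of polyadenylated RNA of 2H11 cells, a cultured line from an axillary lymph node of a C3H/HeJ mouse that the labels call endothelial. After starvation, 3 libraries' cells were kept for 48 h with BMP4 plus palovarotene, a synthetic agonist of the retinoic acid receptor gamma. The cells of the other 3 libraries were kept for 48 h with BMP4 alone, so that BMP4 was present in every library and its own effect was not measured. The labels state no dose, and all libraries came from 1 cell line. Whether replicates were grown as separate cultures is not stated, so that a p-value reflects the spread among these libraries, which may be technical.

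Id proteins (inhibitors of DNA binding) have a helix-loop-helix domain for pairing with other proteins but lack the basic stretch that contacts DNA. By pairing with the E proteins they keep these from forming active dimers with tissue-specific basic helix-loop-helix (bHLH) factors. Bone morphogenetic proteins (BMPs) act through receptors that phosphorylate SMAD1, SMAD5 and SMAD9, and Id1, Id2 and Id3 are among the genes that these SMADs induce directly. In endothelial cells Id1 and Id3 are known for their part in vessel growth.

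The 4 genes are close relatives in the part that encodes the helix-loop-helix domain. The stretch of 40 codons with the most shared residues is shown because it defines the family whose members are compared. It lies in coding exon sequence of GENCODE vM21 transcripts on GRCm38, at chr2:152736518-152736637 (+) for Id1, chr12:25095783-25095902 (-) for Id2, chr4:136144002-136144121 (+) for Id3 and chr13:48261693-48261812 (+) for Id4. Capitals mark bases that are identical in all 4 genes, 69 of 120.
Id1: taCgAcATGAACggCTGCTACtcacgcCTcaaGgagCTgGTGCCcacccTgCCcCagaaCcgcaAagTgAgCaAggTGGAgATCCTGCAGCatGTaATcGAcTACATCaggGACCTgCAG
Id2: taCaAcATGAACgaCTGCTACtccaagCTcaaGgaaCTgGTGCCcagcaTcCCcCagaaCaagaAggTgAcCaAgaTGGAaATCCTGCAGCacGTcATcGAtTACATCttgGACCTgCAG
Id3: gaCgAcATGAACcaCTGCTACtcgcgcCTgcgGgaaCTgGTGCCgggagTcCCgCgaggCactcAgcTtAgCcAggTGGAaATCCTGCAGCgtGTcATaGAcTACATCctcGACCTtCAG
Id4: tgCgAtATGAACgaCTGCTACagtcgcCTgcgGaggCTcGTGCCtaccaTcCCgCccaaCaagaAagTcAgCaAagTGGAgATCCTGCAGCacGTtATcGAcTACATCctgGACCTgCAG
In this stretch Id1 and Id2 shared 81.7% of bases, the highest of the 6 pairs, and Id1 and Id3 shared 70.8%, as did Id3 and Id4.

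Palovarotene moved the 4 genes in opposite directions. Id2 and Id3 rose, and Id1 and Id4 fell, each past the test over all genes. Expression was given as FPKM, fragments scaled by gene length and by the total of mapped fragments, and was compared with limma on log2(FPKM + 1). A gene was called changed at a Benjamini-Hochberg adjusted p below 0.05. Of 11584 genes tested, 43.0% were called changed, 19.1% higher and 23.8% lower, so that a call was common in this comparison. The groups did not overlap for any of the 4 Id genes, as was the case for 54.9% of all tested genes. In RNA from a bulk culture, fewer cells with a transcript and less of it per cell cannot be told apart.

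Id2 (chr12:25093799-25097140, minus strand, GRCm38) had the largest change of the family. It was at 123, 119 and 125 FPKM in the libraries with BMP4 + palovarotene, against 53.4, 67.1 and 64.0 FPKM in those with BMP4 alone. All 3 palovarotene libraries stood close together and far above every BMP4 library. The mean was 122 ± 3.16 FPKM with palovarotene and 61.5 ± 7.23 FPKM with BMP4 (SD, n = 3 each), a ratio of 1.99. The log2 fold change was 0.99 with an SE of 0.0844 (95% interval 0.79 to 1.19, limma adjusted p = 0.000132). Of all tested genes, 96.0% had a smaller absolute log2 fold change.

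Id3 (chr4:136143497-136145755, plus strand) was the family member with the highest level in every library. It was at 281, 277 and 281 FPKM with palovarotene, against 218, 216 and 236 FPKM with BMP4. The palovarotene libraries were again the higher ones, by a smaller step than for Id2. Its log2 fold change was 0.33 with an SE of 0.0453 (95% interval 0.22 to 0.43, limma adjusted p = 0.00134), a ratio of means of 1.25. Of tested genes, 73.3% had a smaller absolute change.

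Id1 (chr2:152736251-152737410, plus strand), the member most used as a readout of BMP signalling, went the other way. It was at 128, 126 and 124 FPKM with palovarotene, against 164, 159 and 182 FPKM with BMP4. Every palovarotene library was below every BMP4 library, and BMP4 replicate 3 was the highest. The mean was 126 ± 1.95 FPKM with palovarotene and 168 ± 12.3 FPKM with BMP4 (SD, n = 3 each), a change of -25.0%. The log2 fold change was -0.41 with an SE of 0.0568 (95% interval -0.54 to -0.27, limma adjusted p = 0.00133).

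Id4 (chr13:48261228-48266026, plus strand), best known from the nervous system, was a minor member. It was at 2.48, 2.27 and 2.15 FPKM with palovarotene, against 3.51, 4.41 and 4.005 FPKM with BMP4. The groups were separate, but 20.0% of listed genes had a lower mean level than Id4 with palovarotene and 31.3% with BMP4, whereas the other 3 Id genes stood above at least 93.8% of listed genes in each group. Its log2 fold change was -0.59 with an SE of 0.0802 (95% interval -0.78 to -0.40, limma adjusted p = 0.0012), and the ratio of means was 0.578. The first 1396 bases of the gene overlap A330033J07Rik, an antisense gene on the minus strand, and Gm49291 also overlaps it on that strand. No source used here says if strand was used to assign reads, so the value of Id4 is uncertain to that extent. No annotated gene overlaps Id1, Id2 or Id3.

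**Figure D1:**
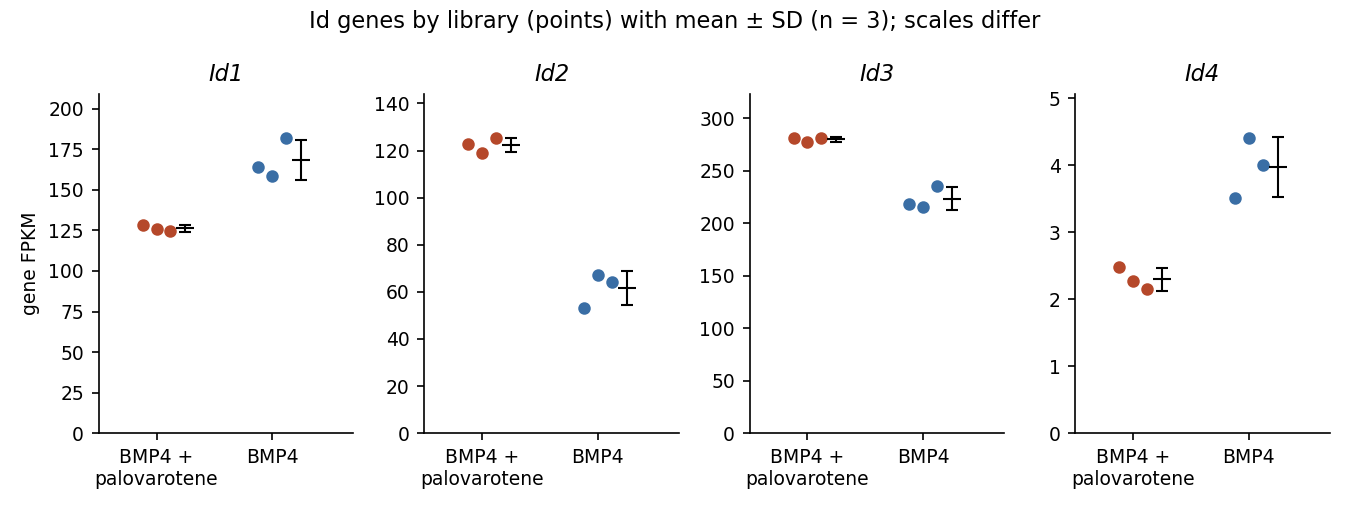
Gene FPKM of Id1, Id2, Id3 and Id4 in each library (points, replicates 1 to 3 from left to right) with the mean ± SD of each group (n = 3), BMP4 + palovarotene on the left and BMP4 on the right of each panel; each panel has its own scale from 0. Id2 and Id3 were higher in all 3 palovarotene libraries, and Id1 and Id4 were lower in all 3.

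The replicates of each Id gene were tighter with palovarotene. The coefficient of variation of the 4 genes lay between 0.815% and 7.23% with palovarotene and between 4.93% and 11.8% with BMP4 (n = 3 each). With 3 libraries a group, this difference in spread was not tested. It was not particular to the Id genes. Across all tested genes, Pearson's r of log2(FPKM + 1) was 0.992 to 0.993 among palovarotene libraries and 0.988 to 0.991 among BMP4 libraries. Among the BMP4 libraries, replicate 3 had the highest Id1 and Id3, and replicate 1 had the lowest Id2 and Id4.

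The make-up of the family therefore shifted while its total changed less. The 4 genes summed to 535, 525 and 533 FPKM with palovarotene, against 439, 446 and 486 FPKM with BMP4. Id1 made up 23.3% to 24.01% of that sum in the palovarotene libraries and 35.6% to 37.5% in the BMP4 libraries. Id2 made up 22.7% to 23.5% with palovarotene and 12.2% to 15.05% with BMP4. Id3 made up the largest share in every library, at 52.6% to 52.9% with palovarotene and 48.4% to 49.7% with BMP4. Id4 stayed below 1% in every library.

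**Figure D2:**
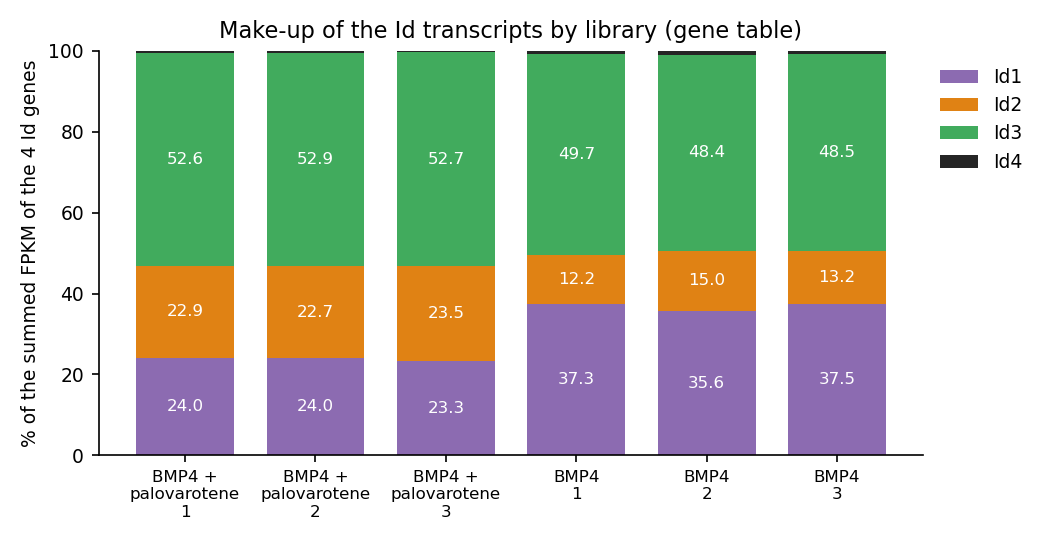
Share of each Id gene in the summed FPKM of the 4 Id genes (gene table), 1 bar for each library, with the 3 BMP4 + palovarotene libraries on the left and the 3 BMP4 libraries on the right. The Id2 share was 22.7% to 23.5% with palovarotene and 12.2% to 15.05% with BMP4, and the Id1 share was lower with palovarotene in all 3 libraries.

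Ratios between members within a library do not depend on how that library was scaled. Id2 over Id1 was 0.956, 0.946 and 1.01 with palovarotene, against 0.326, 0.423 and 0.352 with BMP4, a difference of 1.41 in log2 of the ratio. Id3 over Id1 was 2.19, 2.20 and 2.26 with palovarotene, against 1.33, 1.36 and 1.296 with BMP4, a difference of 0.74. The groups did not overlap in either ratio. This followed from the gene values, since Id2 and Id3 were higher and Id1 was lower in every palovarotene library. The two-sided exact permutation test gave p = 0.1 for each, the smallest p that 3 libraries against 3 can give. That outcome was fixed by the same separation, so it adds no support. Among the ratios that were not tested, Id4 over Id2 differed most, at 0.0188 ± 0.00156 with palovarotene and 0.0647 ± 0.00187 with BMP4 (SD, n = 3 each).

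The order of the levels depended on the group. With BMP4 it was Id3, Id1, Id2 and Id4, and no neighbours in that order overlapped between libraries. With palovarotene Id1 (124 to 128 FPKM) and Id2 (119 to 125 FPKM) overlapped, with Id3 above them and Id4 below. Which of Id1 and Id2 was the higher then rested on how the authors' gene value was made. For 1375 of 1376 genes with every annotated transcript listed, the gene FPKM equalled the transcripts' FPKM weighted by their lengths over the length of all exons together, within a relative tolerance of 0.001. For Id1 and Id2 this gives a lower figure than the transcripts' sum. Id2 has 2438 exon bases against 1969 in its main transcript, and Id1 has 1160 against 934, a similar proportion. The minor forms differ more. Id1-202 spans all 1160 exon bases of Id1, whereas Id2-201 has 1270 bases and Id2-203 has 958. Summed over listed transcripts, Id2 was at 156 to 163 FPKM and Id1 at 150 to 155 FPKM with palovarotene, so that Id2 was then the higher in all 3 libraries. With BMP4, Id2 was at 69.6 to 88.5 FPKM and Id1 at 186 to 215 FPKM by that sum. The log2 fold changes of the sums were 0.96 for Id2, 0.37 for Id3, -0.39 for Id1 and -0.59 for Id4, each past the test (limma adjusted p of 0.00063, 0.00173, 0.00395 and 0.00387).

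**Figure D3:**
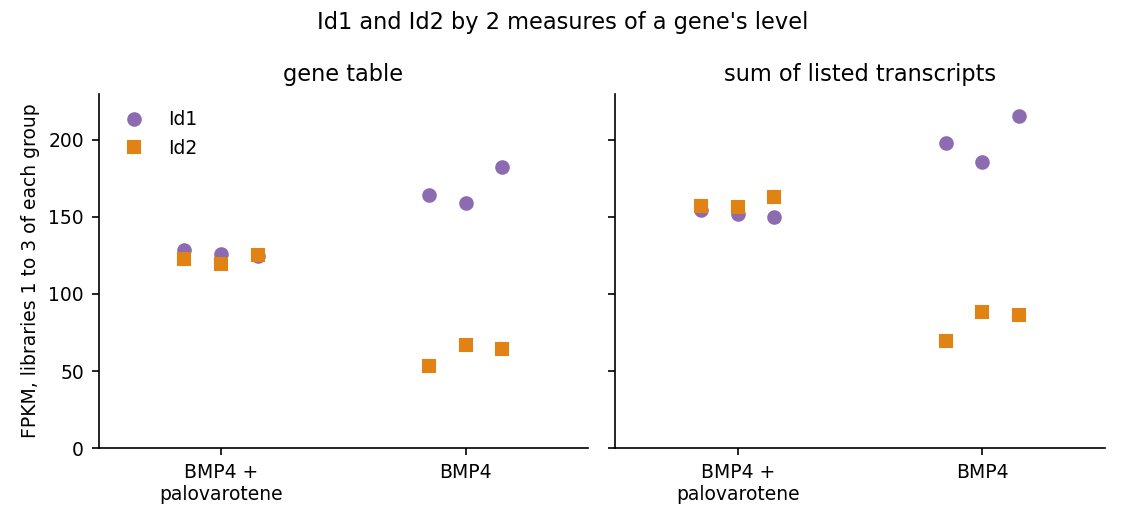
FPKM of Id1 (circles) and Id2 (squares) in replicates 1 to 3 of BMP4 + palovarotene (left in each panel) and of BMP4 (right), from the gene table and as the sum of the listed transcripts. With palovarotene, Id1 and Id2 overlapped in the gene table (124 to 128 and 119 to 125 FPKM), and Id2 was above Id1 in the sum (156 to 163 and 150 to 155 FPKM).

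Transcript values were compared in the same way, with less power: 12.9% of 21101 transcripts tested were called changed, and 34.4% had groups that did not overlap. All 7 Id transcripts were tested and 3 were called changed. They were Id2-202 and Id3-201, which were higher, and Id4-201, which was lower. The share of all tested transcripts called higher was 6.49%, and called lower 6.42%.

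Most of the Id2 signal was assigned to Id2-202, the annotated form with an extra exon upstream of the others. Id2-202 was at 146, 137 and 146 FPKM with palovarotene, against 62.7, 77.1 and 70.8 FPKM with BMP4 (log2 fold change 1.02, SE 0.0827, limma adjusted p = 0.00148). It made up 87.4% to 93.2% of the listed Id2 FPKM with palovarotene and 82.0% to 90.0% with BMP4. Id2-201, which encodes the same 134 codons from a start further downstream, was at 1.78 to 8.15 FPKM with palovarotene and 0.0182 to 5.70 FPKM with BMP4, overlapping between groups (adjusted p = 0.552). These forms differ mainly at their 5′ ends and share most of their exons, so the division between them is an estimate.

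Id1 and Id2 each have a listed form that keeps the intron after the first coding exon and reads into it. The coding ends of the spliced and the intron-keeping forms are shown because they are all that sets the encoded proteins apart. The last 30 coding bases before the splice site are in lower case and what follows, up to and including the stop codon, is in capitals.
Id1-201, spliced: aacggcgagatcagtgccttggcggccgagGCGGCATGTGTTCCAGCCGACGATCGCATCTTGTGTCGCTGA
Id1-202, intron kept: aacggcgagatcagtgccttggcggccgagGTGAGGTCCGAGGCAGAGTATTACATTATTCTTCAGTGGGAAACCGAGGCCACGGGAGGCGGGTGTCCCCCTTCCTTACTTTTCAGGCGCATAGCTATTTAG
Id2-202, spliced: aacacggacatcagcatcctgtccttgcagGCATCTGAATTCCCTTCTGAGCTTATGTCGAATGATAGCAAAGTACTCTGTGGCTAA
Id2-203, intron kept: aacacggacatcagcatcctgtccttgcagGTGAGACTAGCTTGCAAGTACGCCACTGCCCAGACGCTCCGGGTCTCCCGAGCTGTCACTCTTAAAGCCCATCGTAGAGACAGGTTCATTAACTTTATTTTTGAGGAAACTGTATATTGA
The capitals lie at chr2:152736972-152737013 for Id1-201, chr2:152736746-152736847 for Id1-202, chr12:25095318-25095374 for Id2-202 and chr12:25095543-25095662 for Id2-203 (GRCm38). Id1-201 has 148 codons and Id1-202 has 168, while Id2-202 has 134 and Id2-203 has 155.

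Both forms of Id1 had a lower mean with palovarotene, and neither passed the test on its own. Id1-202 covers all of Id1-201 plus its intron, so the division between them is an estimate. Id1-201 was at 136, 132 and 130 FPKM with palovarotene, against 174, 139 and 172 FPKM with BMP4 (log2 fold change -0.27, limma adjusted p = 0.134). Id1-202 was at 18.9, 19.5 and 19.6 FPKM with palovarotene, against 23.9, 46.7 and 44.0 FPKM with BMP4 (-0.89, adjusted p = 0.0913). The groups did not overlap for either form, but BMP4 replicate 2 was low in Id1-201 and BMP4 replicate 1 was low in Id1-202. A form was called only when the BMP4 library lowest in that form was left out. This held for Id1-201 without BMP4 replicate 2 (-0.38, limma adjusted p = 0.00883) and for Id1-202 without BMP4 replicate 1 (-1.19, adjusted p = 0.00112). Leaving out the lowest library favours such a call, so no conclusion is drawn from either. Over all alternatives the adjusted p lay between 0.00883 and 0.295 for Id1-201 and between 0.00112 and 0.223 for Id1-202.

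The intron-keeping form made up a minority of the listed FPKM of each gene, up to 25.1% for Id1 and 11.4% for Id2. Id1-202 made up 12.2%, 12.9% and 13.1% of the listed Id1 FPKM with palovarotene, against 12.1%, 25.1% and 20.4% with BMP4, so that the groups overlapped through BMP4 replicate 1. Id2-203 made up 5.67%, 7.39% and 6.18% of the listed Id2 FPKM with palovarotene, against 10.0%, 9.54% and 11.4% with BMP4, with no overlap. In FPKM, Id2-203 itself was at 8.91 to 11.5 with palovarotene and 6.96 to 9.86 with BMP4 (adjusted p = 0.362).

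Id3 had 1 listed transcript, Id3-201, and it was at 352, 336 and 349 FPKM with palovarotene, against 270, 255 and 278 FPKM with BMP4 (log2 fold change 0.37, SE 0.0441, limma adjusted p = 0.00569). By the length weighting, 10.7% to 13.5% of the Id3 gene value with palovarotene and 11.7% to 15.9% with BMP4 lay outside Id3-201. The annotation has 2 further Id3 transcripts, 1 of them with an intron kept, and their values are not analysed here. Id4-201 is the only annotated Id4 transcript, so its values were those of the gene. Among transcripts its fall was called (adjusted p = 0.0253), but that call was lost without any 1 of the palovarotene libraries, BMP4 replicate 2 or BMP4 replicate 3 (-0.66 to -0.53 over all 6 ways to leave out a library).

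**Figure D4:**
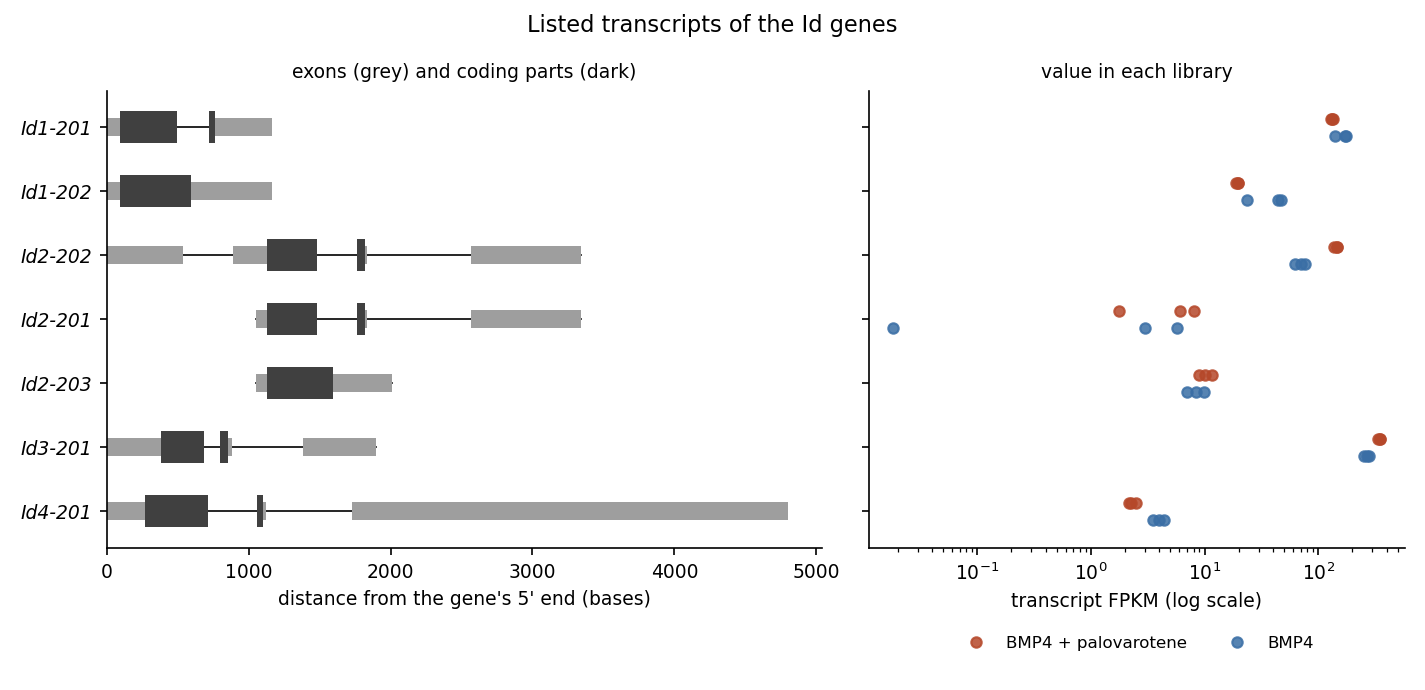
Exons (grey) and coding parts (dark) of the 7 listed Id transcripts by distance from the 5′ end of the gene, in bases, and the FPKM of each transcript in each library on a log scale, with BMP4 + palovarotene above BMP4 in each row. Id2-202 was higher with palovarotene (137 to 146 against 62.7 to 77.1 FPKM), whereas Id2-201 and Id2-203 overlapped between groups.

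Promoter windows, from 250 bases before to 50 after the start in RefSeq on GRCm38.p6, were at hand for Id2, Id3 and Id4, that is 3 of the 4 genes. They were searched on both strands for GGCGCC, a GC-rich element through which SMAD1 and SMAD5 act on BMP targets. It occurred once each in Id2 and Id4, which moved in opposite directions, and in 11.9% of 32851 windows. The Id2 window belongs to the start of Id2-201, so that its site lies in the first intron of Id2-202, the form that carried most of the signal. These 2 sites are shown, 5′ to 3′ along the gene, with the motif in capitals.
Id2 (chr12:25096306-25096335, minus strand): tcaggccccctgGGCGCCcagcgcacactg
Id4 (chr13:48260956-48260985, plus strand): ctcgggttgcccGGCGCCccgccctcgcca
The Id3 window had no GGCGCC and 2 matches to CAGAC or its reverse GTCTG, the shorter SMAD element, which 49.6% of windows hold. The whole Id3 window lies inside the first exon of Id3-201 as GENCODE annotates it, so that both matches are in transcribed sequence of that form and not upstream of it. AGGTCA or TGACCT, a half-site of nuclear receptors, was in 16.3% of windows and in none of the 3. A match is only a run of letters in this window. Only these exact letters were searched, so variants of each motif within the windows and elements further away were not covered.

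The E proteins are the main partners of the Id proteins. Of their 3 genes, 0 were called changed by limma, and 1 had an unadjusted p below 0.05. Tcf3 was at 23.0, 25.3 and 23.1 FPKM with palovarotene, against 33.7, 25.4 and 29.0 FPKM with BMP4 (log2 fold change -0.28, limma adjusted p = 0.0562). Its groups were separate by a small margin, set by BMP4 replicate 2, and without that library it was called lower (-0.38, adjusted p = 0.0129, with 0.0129 to 0.147 over all alternatives). Tcf12 was at 9.74 ± 0.367 and 10.2 ± 0.439 FPKM with palovarotene and with BMP4 (SD, n = 3 each), and Tcf4 was at 2.33 ± 0.244 and 2.43 ± 0.155. The 3 E protein genes summed to 35.1 to 37.2 FPKM with palovarotene and 38.2 to 45.9 FPKM with BMP4. The summed Id FPKM was 14.1 to 15.2 times that of the E protein genes with palovarotene and 9.57 to 11.7 times with BMP4. These are ratios of RNA, and the proteins were not measured.

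Of 30 tissue-specific bHLH genes, the factors that pair with E proteins, 4 were listed, and all 4 were called, 1 higher and 3 lower, where 43.0% of all tested genes were called. Scx, the gene of the tendon factor scleraxis, had the largest change, at 0.895 ± 0.236 FPKM with palovarotene and 3.80 ± 0.529 FPKM with BMP4 (log2 fold change -1.34). Twist1 and Twist2, close relatives that restrain osteoblast differentiation, moved apart. Twist1 was at 30.1 ± 0.889 FPKM with palovarotene and 39.3 ± 1.63 FPKM with BMP4, and Twist2 was at 18.6 ± 0.740 and 12.6 ± 0.588 FPKM (-0.37 and 0.53, limma adjusted p of 0.000877 and 0.000286). Atoh8, itself a BMP target, fell by 0.66. The median log2 fold change of these 4 genes was -0.52, against -0.03 over all tested genes.

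Of 11 Hes, Hey and Bhlhe repressor genes, 5 were tested, with 2 higher and 2 lower (43.0% of all tested genes called). Hes1, a Notch target, was at 29.4 ± 2.81 FPKM with palovarotene and 21.2 ± 1.45 FPKM with BMP4 (log2 fold change 0.45), and Bhlhe40, a repressor of the circadian clock, was higher by 0.51. Its relative Bhlhe41 fell to 1.45 ± 0.197 FPKM with palovarotene, against 3.08 ± 0.253 FPKM with BMP4 (-0.73), and Hes6, whose protein opposes Hes1, fell by 0.43. Hey1, a target of BMP and Notch signals in endothelium, was at 5.39 ± 0.113 and 5.55 ± 0.510 FPKM and was not called (limma adjusted p = 0.709). The median of the 5 was -0.03.

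Of 22 genes of BMP ligands, receptors and SMADs, 13 were tested, with 2 higher and 4 lower and a median log2 fold change of -0.07. Over all tested genes, 19.1% were called higher and 23.8% lower, so these counts show nothing particular to the list. Of the 3 SMADs that carry the BMP signal, Smad1 was at 15.2 ± 0.247 FPKM with palovarotene and 7.71 ± 0.120 FPKM with BMP4 (0.89), and Smad5 was at 11.4 ± 0.766 and 15.2 ± 1.60 FPKM (-0.38). Smad9 was at 12.4, 11.8 and 12.7 FPKM with palovarotene, against 12.7, 13.5 and 12.8 FPKM with BMP4, and was not called (-0.07, limma adjusted p = 0.265). It is counted in the list of BMP-SMAD targets below and not among these 13 genes. Their phosphorylation was not measured. The ligand gene Bmp4 itself was at 1.74 ± 0.148 FPKM with palovarotene and 5.34 ± 0.114 FPKM with BMP4 (-1.21). The receptor gene Acvr1 fell by 0.26, and Bmpr1a, at 26.4 ± 1.56 and 27.8 ± 2.14 FPKM, was not called (limma adjusted p = 0.461). Rgma and Rgmb, genes of BMP co-receptors, moved by -0.49 and 0.29.

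Of 32 BMP-SMAD targets outside the Id family, 26 were tested, with 7 higher and 8 lower, against 19.1% higher and 23.8% lower over all tested genes, and a median of 0.02. The inhibitory SMAD genes, which BMP signals induce as feedback, went with Id2 and Id3. Smad6 was at 80.4, 80.3 and 77.6 FPKM with palovarotene, against 49.0, 46.4 and 45.2 FPKM with BMP4 (log2 fold change 0.75, limma adjusted p = 2.23e-05), and Smad7 was higher by 0.23 (adjusted p = 0.0147). Targets that encode secreted antagonists of BMPs or activins went the other way, among them Fst (-2.31), the follistatin gene, which stood at 3.59 ± 0.354 FPKM with palovarotene and 21.7 ± 1.004 FPKM with BMP4. Grem1 moved by -3.20. Noggin (Nog) fell by 0.20. The other 5 targets called higher were Hes1, Dlx3, Gata2, Skil and Tbx2, and the others called lower were Atoh8, Msx1, Runx2, Snai2 and Sox9.

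Of 20 genes whose proteins bind Id proteins or act on their stability, 17 were tested, with 2 higher and 4 lower (43.0% of all tested genes called) and a median of -0.05. Rb1, the retinoblastoma gene, whose protein Id2 binds, was at 9.10, 8.76 and 9.53 FPKM with palovarotene, against 12.9, 13.5 and 12.6 FPKM with BMP4 (log2 fold change -0.47, limma adjusted p = 0.00045). Usp1, which encodes a deubiquitinase that stabilises Id proteins, was at 48.0 ± 1.60 FPKM with palovarotene and 39.2 ± 2.03 FPKM with BMP4 (0.28, adjusted p = 0.00429). The ETS factor genes Elk3 and Elk4 moved by 0.34 and -0.40. Cav1, the caveolin gene, was at 1.75 ± 0.0936 FPKM with palovarotene and 5.27 ± 0.303 FPKM with BMP4 (-1.19).

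**Figure D5:**
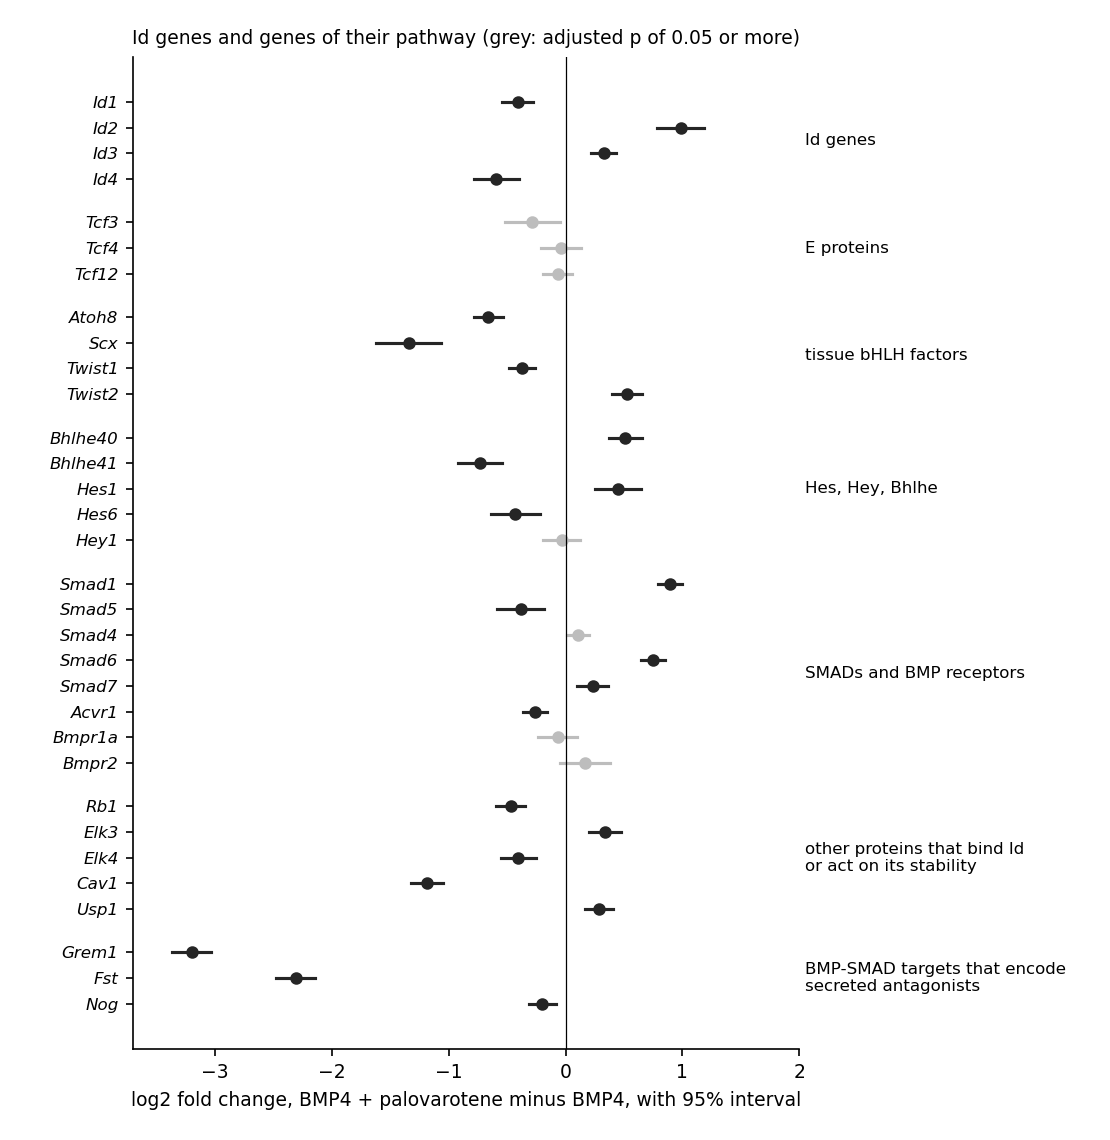
Log2 fold change (BMP4 + palovarotene minus BMP4, on log2(FPKM + 1)) with its 95% interval from limma for the Id genes and genes around them, grouped by role; grey marks genes that were not called. Id1 (-0.41) and Id4 (-0.59) lie left of 0 and Id2 (0.99) and Id3 (0.33) right of it, Smad1 and Smad5 lie on opposite sides, and the secreted antagonists Grem1 and Fst lie farthest to the left.

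Genes with the profile most like that of each Id gene were sought among the 7378 genes whose mean reached 5 FPKM, by the root mean square difference of log2(FPKM + 1) over the 6 libraries after removing each gene's mean. Nearest to Id1 were Plin3, Ly6e and Twist1 (0.0321 to 0.0352). Nearest to Id2 were Nrn1, Eef1akmt2 and Mndal (0.0485 to 0.0594), of which Nrn1 was at 59.0 ± 1.73 FPKM with palovarotene and 27.99 ± 3.005 FPKM with BMP4 (SD, n = 3 each). Nearest to Id3 were C1qbp, Creb3 and Ciapin1 (0.0120 to 0.0216), and nearest to Id4 were Ccdc80, Mettl21a and Cdc14b (0.0329 to 0.0422). Id4 itself was below 5 FPKM in every library, so no gene of its own level was searched. At its level log2(FPKM + 1) understates a change, so similar profiles need not mean similar ratios. The points share the same 6 libraries and their split into 2 groups, so this is a description only.

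Cell type markers were read to check the endothelial label. Of 15 endothelial markers, 5 were listed, and their sum of 27.5 to 30.1 FPKM with palovarotene and 27.8 to 31.4 FPKM with BMP4 was mostly Eng, a BMP co-receptor gene that other cells also express. The other markers of the panel, among them Pecam1, Cdh5 and Kdr, which define endothelium, are not among the listed genes. Every listed gene reached a minimum mean FPKM in a group, given below with the processing. A gene under that minimum in both groups would be missing from the list, so the absence of these markers is part of the check. Their values are not given, and the reason for each absence is not stated. The even sum of the 5 listed markers covered unequal members. Flt1 was at 1.22 to 1.35 FPKM with palovarotene and 3.84 to 3.99 FPKM with BMP4, Tek at 0.550 to 0.782 and 1.78 to 2.01, and Vwf at 0.0233 to 0.0291 and 1.08 to 1.31. Flt4 was at 2.79 to 3.23 FPKM with palovarotene and 0.908 to 1.16 FPKM with BMP4. All 9 mural and fibroblast markers were listed and summed to 1307 to 1366 FPKM with palovarotene and 1367 to 1462 FPKM with BMP4. Within that sum, the contractile gene Acta2 was at 64.1 to 67.6 FPKM with palovarotene and 157 to 162 FPKM with BMP4, Vim at 145 to 154 and 241 to 274, and Tagln at 47.7 to 51.7 and 73.5 to 83.3. Pdgfra was at 27.4 to 28.5 FPKM with palovarotene and 8.63 to 9.57 FPKM with BMP4, and Col1a1 at 661 to 710 and 487 to 552. The 2 leukocyte markers listed, Cd68 and Cd14, summed to 10.1 to 11.1 and 16.6 to 17.8 FPKM, and the only epithelial marker listed, Krt19, was at 31.3 to 32.4 and 9.06 to 11.2 FPKM. The part of these differences in the Id values was not tested. Across tested genes, Pearson's r of log2(FPKM + 1) was 0.992 to 0.993 among palovarotene libraries, 0.988 to 0.991 among BMP4 libraries and 0.954 to 0.959 between groups.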

How the data were processed

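The authors deposited FPKM values per library, for genes and for transcripts, per the file headers. Tools named in the submitters' processing notes, with no version or role, are HISAT2, StringTie, cutadapt and FastQC; the build named is GRCm38. Listed genes had a mean of at least 0.500 FPKM in 1 group. Each table held 1 line without values. Low values were no whole multiples of a common step, so library depth is unknown and counting intervals could not be computed.

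Genes and transcripts averaging 0.5 FPKM or more over the 6 libraries were compared with limma 3.58.1 (R 4.3.3) on log2(FPKM + 1) with a variance trend and Benjamini-Hochberg adjustment at 0.05. Fold changes are BMP4 + palovarotene minus BMP4 and understate changes of low genes. Transcript lengths, sequences and overlaps came from GENCODE vM21, promoters from RefSeq (GRCm38.p6). Ratios used an exact permutation test (scipy 1.17.1).

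The members and gene lists were chosen with earlier results of these data known. Named genes were the Id genes, fixed pathway genes, the 4 of smallest p per list and the 3 most similar genes per Id gene; others named as examples were chosen after their values were seen. Alternatives tried were quantile and median-ratio scaling, a filter at 5 FPKM or none, a pseudocount of 0.1, no trend, a replicate block, summed transcripts and each library left out. The test was tried on simulated data. An item of the BMP-SMAD target list is not reported here. A count test was not run, since the values are not counts.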

Additional observations from a re-analysis of the deposited data

How the results depend on the processing

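The 4 Id genes kept their direction and their call under every alternative in which they were tested, each library left out included; Id4 was not tested with a filter at a mean of 5 FPKM. Log2 fold changes lay between -0.45 and -0.35 for Id1, 0.89 and 1.05 for Id2, 0.30 and 0.37 for Id3, and -0.76 and -0.53 for Id4. The number of genes called over the table was 3111 with the filter at 5 FPKM, against 4976; fewer genes were then tested. With that filter, 2 genes of the BMP ligand, receptor and SMAD list and 1 of the Hes, Hey and Bhlhe list were called lower. No scaling moved the median of all genes by more than 0.0243 (log2).

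With the replicate number as a block, all 4 Id genes were called and 3844 genes in all; Id4-201 was no longer called (limma adjusted p = 0.147). Same-numbered libraries did not deviate together (r of -0.136 to -0.0207), and the labels do not say that a number marks a shared culture. The number of Id transcripts called lay between 2 and 4 when 1 library was left out. Tcf4, not called, had log2 fold changes of -0.0760 to 0.0215 when 1 library was left out, higher only without BMP4 + palovarotene replicate 1, and Tcf3 was called lower with quantile normalization (-0.29, limma adjusted p = 0.0453). The causes were not tested. The depth of the libraries is unknown, which limits what can be said of Id4 and Id2-201.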

Other observations

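Further genes around the Id family were read from lists of candidates. Of 18 transcription factors considered as possible regulators of Id genes, all were tested, with 1 higher and 7 lower (43.0% of all tested genes called), and a median log2 fold change of -0.14 against -0.03 over all genes. Zfp423, which encodes a zinc finger partner of BMP-activated SMADs, was at 2.14, 2.09 and 2.14 FPKM with palovarotene, against 0.270, 0.293 and 0.344 FPKM with BMP4 (1.26, limma adjusted p = 3.18e-06). The size of that change depends on the pseudocount: the ratio of means was 7.03, and the log2 fold change was 2.47 with a pseudocount of 0.1. Foxo1, a forkhead factor, was at 5.07 ± 0.133 FPKM with palovarotene and 11.6 ± 0.320 FPKM with BMP4 (SD, n = 3 each), a log2 fold change of -1.05. Zeb2, a SMAD-binding repressor, fell by 0.71 and Stat5a by 0.35. The number called lower was 4 without BMP4 + palovarotene replicate 2 or BMP4 replicate 2, and 3 without BMP4 + palovarotene replicate 3. The number called higher was 3 without BMP4 + palovarotene replicate 1 2 without BMP4 replicate 1 or with the replicate block, and 0 with a filter at a mean of 5 FPKM.

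Of 16 genes considered as possible targets of Id and E proteins, 15 were tested, with 6 higher and 7 lower, where 43.0% of all tested genes were called, and a median of -0.22 against -0.03 over all genes. Thbs1 is the gene of the angiogenesis inhibitor thrombospondin 1, which Id1 is reported to repress. Thbs1 was at 28.8, 30.2 and 32.0 FPKM with palovarotene, against 142, 173 and 145 FPKM with BMP4 (log2 fold change -2.30, limma adjusted p = 2.51e-06). Id1 itself was also lower with palovarotene (-0.41), and a link between these changes was not tested. Cdkn1a, a CDK inhibitor gene that E proteins induce, was at 240 ± 5.49 FPKM with palovarotene and 309 ± 19.7 FPKM with BMP4 (-0.36, adjusted p = 0.00183), and Cdkn2a, at 258 ± 4.86 and 246 ± 9.20 FPKM, was not called (adjusted p = 0.216). Mmp14 fell by 0.80, whereas Mmp2 and Cdh2 were each higher by 0.35.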
